A study of Mus musculus with 2 samples.

Results

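The Kruppel-like factor (KLF) genes described here are Klf1, Klf2, Klf3, Klf4, Klf5, Klf6, Klf7, Klf9, Klf10 and Klf13, 10 of 21938 protein-coding genes in the annotation (GENCODE M21, mouse build mm10). They were chosen by name, with earlier results of these data known. Their loci were taken as the gene body plus 50 kb on each side of the gene's 5′ end, and held 96 of the 80938 open regions in the conservative peak list that the authors made from both libraries. A region is at a promoter when its strongest summit, the point of highest signal, lies within 1 kb of an annotated start site of a protein-coding gene, and is distal otherwise.

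Kruppel-like factors are transcription factors with a conserved zinc finger domain that binds GC-rich sequences and CACCC boxes. Klf1, Klf2, Klf4, Klf5, Klf6 and Klf7 are known mainly as activators, Klf3 as a repressor that recruits C-terminal binding proteins, and Klf9, Klf10 and Klf13 as factors that recruit the Sin3 corepressor. In blood, Klf1 is the factor known for driving red cell genes and for favouring the red cell over the megakaryocyte fate of their common progenitor.

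The data were ATAC-seq, in which a transposase cuts and tags open chromatin, of primary megakaryocyte progenitors, the precursors of the cells that shed platelets. The cells came from male adult C57BL/6J mice aged 5 to 6 weeks, with 50000 cells in each of 2 libraries numbered as biological replicates. There was 1 group, with no treatment, other genotype or other cell type, so the results are levels and counts set beside those of all genes, with no test. The labels also carry a code, CFU-M, whose meaning they do not give. Both libraries carry the same donor label, and neither the purification of the cells nor separate mice for the replicates is stated, so the spread between the libraries may be technical.

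The windows that carry the main observations are shown first, each centred on a region's strongest summit, on the gene's strand and in mm10 coordinates. Capitals mark matches on either strand to 6 short motifs. The KLF CACCC box was written CCNCNCCC, the GATA motif GATAA, the ETS motif AGGAAG and the RUNX motif TGTGGT. For NF-E2 a core written TGAGTCA was used, without flanking bases, and for CTCF a core written AGNGGGC. CCNCNCCC also takes in GC-rich words without CACCC, and misses CACCC where the bases around it differ. None of the motifs tells apart factors that share its letters. The first 3 windows show the compact group of open regions at Klf1, and the window at the start site was trimmed where the untranslated region begins. The promoters of Klf4 and Klf5 are shown for the largest number of KLF boxes in a member's promoter window and for the strongest promoter. The rest are the strongest distal regions of Klf4, Klf10 and Klf3, and a Klf13 intron region picked for its 3 GATA matches.
Klf1, 0.617 kb upstream of the 5′ end, chr8:84901236-84901386, plus strand: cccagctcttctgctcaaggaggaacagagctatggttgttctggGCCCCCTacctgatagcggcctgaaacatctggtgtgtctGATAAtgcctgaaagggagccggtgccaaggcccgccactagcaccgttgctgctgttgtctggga
Klf1, 0.019 kb upstream, chr8:84901834-84901927, plus strand: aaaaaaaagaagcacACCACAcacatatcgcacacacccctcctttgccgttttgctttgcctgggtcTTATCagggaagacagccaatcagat
Klf1, 1.27 kb downstream, coding exon, chr8:84903124-84903274, plus strand: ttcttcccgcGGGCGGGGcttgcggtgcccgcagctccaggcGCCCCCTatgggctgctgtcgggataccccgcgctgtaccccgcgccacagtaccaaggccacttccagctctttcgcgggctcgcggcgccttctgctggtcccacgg
Klf4, promoter, chr4:55532528-55532678, minus strand: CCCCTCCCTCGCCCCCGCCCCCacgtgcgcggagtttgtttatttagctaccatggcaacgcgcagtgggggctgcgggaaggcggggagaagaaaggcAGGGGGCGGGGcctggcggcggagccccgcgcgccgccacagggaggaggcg
Klf5, promoter, chr14:99298502-99298652, plus strand: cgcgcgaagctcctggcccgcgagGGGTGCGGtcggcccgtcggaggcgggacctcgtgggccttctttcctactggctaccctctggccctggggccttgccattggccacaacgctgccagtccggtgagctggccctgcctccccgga
Klf4, 17.6 kb downstream of the 5′ end, chr4:55514779-55514929, minus strand: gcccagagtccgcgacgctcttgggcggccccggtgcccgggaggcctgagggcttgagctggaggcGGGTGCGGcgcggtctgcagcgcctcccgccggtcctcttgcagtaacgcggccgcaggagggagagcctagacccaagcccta
Klf10, 16.6 kb downstream, chr15:38283986-38284136, minus strand: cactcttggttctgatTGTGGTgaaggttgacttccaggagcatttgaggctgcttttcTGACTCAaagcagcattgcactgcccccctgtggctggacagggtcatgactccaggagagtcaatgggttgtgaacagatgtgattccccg
Klf3, 44.1 kb downstream, chr5:64847396-64847546, plus strand: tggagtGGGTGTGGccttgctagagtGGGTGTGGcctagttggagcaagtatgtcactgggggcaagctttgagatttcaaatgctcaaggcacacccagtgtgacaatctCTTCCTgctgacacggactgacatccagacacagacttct
Klf13, 16.2 kb downstream, intron, chr7:63922666-63922816, minus strand: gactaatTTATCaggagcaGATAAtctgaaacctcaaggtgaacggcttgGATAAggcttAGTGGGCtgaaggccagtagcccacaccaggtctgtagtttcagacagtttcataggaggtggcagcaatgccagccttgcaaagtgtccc

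All 10 genes had an open promoter in the conservative list, against 59.9% of protein-coding genes. The same 10 of 10 were found in the list made from replicate 1 alone (56.8% of genes) and in that from replicate 2 alone (56.1%). The members were chosen with earlier results of these data known, so this count does not describe the whole family. Of the 7 other KLF genes 3 had an open promoter in the conservative list. The promoters of the 10 members were mostly weaker than those of other open genes. The signal, the authors' value per peak, had a median of 7.74 over the 10 strongest promoter regions and of 11.25 over the 13135 genes with one, and 9 of the 10 lay below that median. Within replicate 1 the medians were 7.30 and 10.58, and within replicate 2 they were 7.90 and 11.31. The promoters were rich in CpG: the 300 bp around the 5′ end held a median of 29 CpG, against 18 at genes with a promoter region and 11 at all genes.

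Klf5, known from intestinal crypt cells and from granulocyte differentiation, was the member with the strongest promoter. Its signal was 13.06 in replicate 1 and 15.06 in replicate 2 (mean 14.06 ± 1.41, SD, n = 2), and 21.7% of genes with a promoter region had a stronger one. It was the only one of the 10 to lie above the all-gene median in each library. Klf7, a factor known from neurite outgrowth, followed with 9.13 and 9.67 (mean 9.40 ± 0.385). Klf6, known as a tumour suppressor and from macrophage activation, had 8.38 and 9.52 (mean 8.95 ± 0.804), and Klf4, the pluripotency and monocyte factor, had 7.54 and 9.39 (mean 8.46 ± 1.31). Klf7, Klf6 and Klf4 kept this order in both libraries, although their ranges overlapped.

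Klf2, which maintains T cell quiescence and trafficking, had 7.16 in replicate 1 and 7.96 in replicate 2 (mean 7.56 ± 0.562). Klf9, a glucocorticoid-responsive gene, had 7.23 and 7.84 (mean 7.54 ± 0.432). Both differed from each other by less than either gene's spread. Klf1 had 7.36 and 6.37 (mean 6.86 ± 0.703) and Klf3 had 6.92 and 6.65 (mean 6.79 ± 0.191), and these were the members whose promoter was lower in replicate 2. Klf13, which activates the chemokine gene Ccl5 in T cells, had its strongest promoter region at an alternative start in replicate 1 (5.48) and at the 5′ end in replicate 2 (6.01), so no mean is given. Klf10, an early target gene of TGF-beta, had 5.36 and 5.77 (mean 5.57 ± 0.296). Klf10 and Klf13 lay below the other 8 members in both libraries, and 95.3% of genes with a promoter region had a stronger one.

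**Figure D1:**
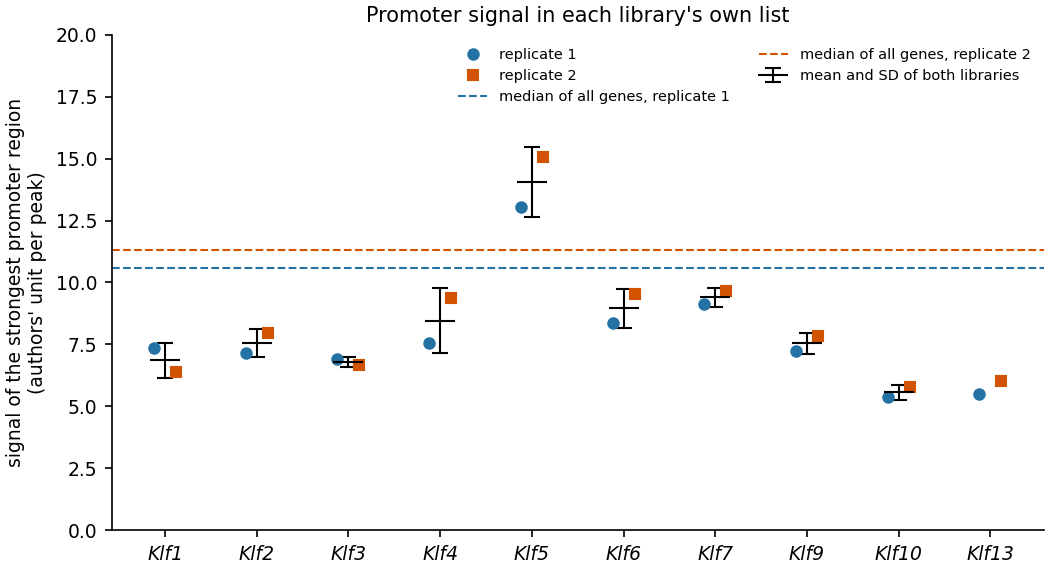
Signal of the strongest promoter region (y axis, the authors' unit per peak) of each gene in the own peak list of replicate 1 (circles) and replicate 2 (squares), with mean and SD over both libraries where both values are from 1 region. Dashed lines give the medians of all genes with a promoter region, 10.58 and 11.31. Klf5 lies above both lines and the other 9 genes lie below both. The values of Klf13 are from different start sites in the 2 libraries.

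Several genes had more than 1 open start site. Klf13 held 3 promoter regions, and its strongest in the conservative list lay at an alternative start 13.4 kb into the gene (signal 5.65) rather than at the 5′ end (5.42). The order depended on the library: at the 5′ end the signal was 4.83 in replicate 1 and 6.01 in replicate 2, and at the alternative start it was 5.48 and 5.47. Klf3 was open at its 5′ end (6.58) and at an alternative start 9.38 kb into the gene (6.00). Klf10 had a second region 1.44 kb into the gene (4.17), and Klf5 had one 0.492 kb downstream (3.93) that was in neither library's own list. Together the 10 genes had 16 promoter regions with signals from 3.08 to 14.49.

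Klf1 lies in a dense neighbourhood. All 7 regions of the 96 that were at promoters of other genes were in its window, at Farsa, Syce2, Gcdh, Dnase2a, Mast1 and Rtbdn, and the strongest of them, at Gcdh 8.05 kb upstream, had a signal of 18 against 7.42 at the Klf1 start site. Within 2 kb of its own 5′ end Klf1 had 3 separate open regions of similar height. The upstream one had 6.46 in replicate 1 and 6.20 in replicate 2, the one at the start site had 7.36 and 6.37, and the one in the coding exon had 8.17 and 8.08. The Klf1 5′ end was also poor in CpG, with 3 in 300 bp, while the other 9 members had 22 to 40. Of its windows shown above, the upstream and start-site ones each hold a GATA match, and the exon one holds a match to the KLF box as written. That exon match, GGGCGGGG, does not contain CACCC on either strand. The start-site window does hold the letters CACCC, which CCNCNCCC did not match there.

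Distal regions were numerous around these genes. Within 50 kb of the 5′ end the 10 genes had a median of 6 distal regions, against 4 over all genes, and means of 7.2 and 4.2. All genes include those without an open promoter, and genes with one were not counted apart. Of the 10 genes 7 had more than the median gene, a position held by 42.4% of all genes, while Klf5 and Klf9 had the median number and Klf4 had fewer. Klf13 had 14 (13 in replicate 1 and 12 in replicate 2), a number exceeded by 0.565% of genes. Klf2 had 12 (9 and 11), exceeded by 1.81%, and Klf3 had 10 (7 and 7), exceeded by 5.22%. At Klf13 and Klf2 many of the regions lay nearer to another gene. Of all regions at the locus, promoters included, 9 of 17 at Klf13 and 6 of 13 at Klf2 were nearest to the member's own 5′ end. At Klf3 it was 12 of 12. At the low end Klf4 had 3 in each of the lists, and Klf10 had 5, against 2 and 3 in the libraries' own lists. Klf9 had 4 in the conservative list and 6 in each own list. In replicate 2 alone the median over the members was 4.5, against 3 over all genes.

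**Figure D2:**
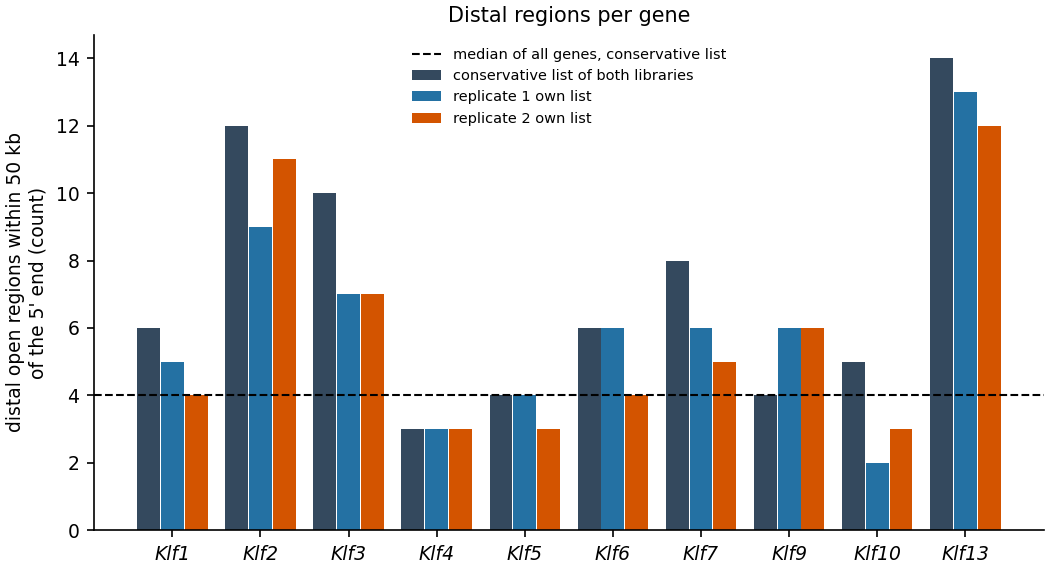
Number of distal open regions within 50 kb of the 5′ end (y axis) for each gene in the conservative list of both libraries and in each library's own list, with the median of all genes in the conservative list (dashed, 4). Klf13, Klf2 and Klf3 have the most and Klf4 the fewest in the conservative list.

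The 73 distal regions were mostly weaker than the typical distal region. Their median signal was 7.09, against 8.74 for all 65549 distal regions, and 28 of the 73 lay above that value. Of their summits 39 were intergenic, 29 intronic and 5 exonic. The body of the member itself held 27 of them, among them 11 of the 14 at Klf13 and 8 of the 9 at Klf7. For 54 of the 73 the member's own 5′ end was the nearest of any protein-coding gene. The rest, all at Klf1, Klf2 and Klf13, cannot be assigned to a gene by position.

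In 8 of the 10 loci the strongest region was a distal one, against 53.3% of genes with a promoter region. Klf5, with its own promoter, and Klf1, with that of Gcdh, made up the rest. The strongest distal region of all lay 17.6 kb downstream of the Klf4 5′ end, in intergenic sequence past the end of the gene. Its signal was 18.69 in replicate 1 and 17.55 in replicate 2, and 0.615% of distal regions had a stronger one. The Klf4 promoter, at 7.54 and 9.39, lay far below it in both libraries. Klf4 had only 2 other distal regions, 43.6 kb downstream (7.65 and 9.28) and in an exon 2.06 kb downstream (6.01 and 5.38).

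Klf10 showed the same contrast. It had a weak promoter and a pair of strong intergenic regions past its end, 16.6 kb downstream (13.08 in replicate 1 and 14.41 in replicate 2) and 11.5 kb downstream (12.69 and 11.86). A further region 25.7 kb upstream (conservative signal 9.99) was in the own list of replicate 2 but not in that of replicate 1. The window of the strongest region holds a RUNX match and a match to the NF-E2 core, whose flanking bases were not searched.

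At Klf3 the strongest distal region lay 44.1 kb downstream (12.80 in replicate 1 and 12.16 in replicate 2), and its window holds a pair of KLF boxes in the same orientation and an ETS match. The next lay 7.41 kb upstream (11.21 and 11.90) and 9.24 kb upstream (9.14 and 10.71). Among the strong distal regions of Klf13 were one 17.4 kb upstream (9.99 and 12.60) and one in its intron at 41.9 kb (9.86 and 10.77). By contrast the other intronic regions of Klf13 were weak, down to a signal of 3.02 in the conservative list.

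Around Klf2 the strongest distal region was in an intron of Eps15l1, 47 kb downstream (10.91 in replicate 1 and 14.22 in replicate 2). Next were intergenic regions 15.1 kb upstream (10.94 and 10.83) and 23.2 kb upstream (10 and 11.79). At Klf1 the highest was in an intron of Mast1, 26.9 kb downstream (11.20 and 12.32), followed by an intergenic region 42.7 kb downstream (7.54 and 10.15) and the exon region shown above. Klf5 had all 4 of its distal regions upstream, led by those at 19.4 kb (11.92 and 13.34), 34.6 kb (9.27 and 9.69) and 32.6 kb (6.80 and 5.84). The first and second lay above the third in both libraries.

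Klf6 had its strongest distal region 27 kb downstream (11.79 in replicate 1 and 12.28 in replicate 2), followed by 15.7 kb upstream (9.13 and 9.19) and 14.2 kb downstream (9.03 and 9.51). In Klf7 the intron regions at 23.3 kb (11.54 and 11.35), 70 kb (11.62 and 11.22) and 17.5 kb (10.25 and 9.68) led, and the first and second did not differ beyond their spread. Klf9 had the weakest maximum of the 10, 15.8 kb upstream (8.81 and 9.07), followed by an intron region at 10.6 kb (7.97 and 7.91) and a region 6.19 kb upstream (5.48 and 5.30). That last region was 2232 bp wide with 6 summits, and only 3 of 65549 distal regions, itself included, were at least as wide. It was low for its width, since 86.6% of distal regions had a higher signal.

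**Figure D3:**
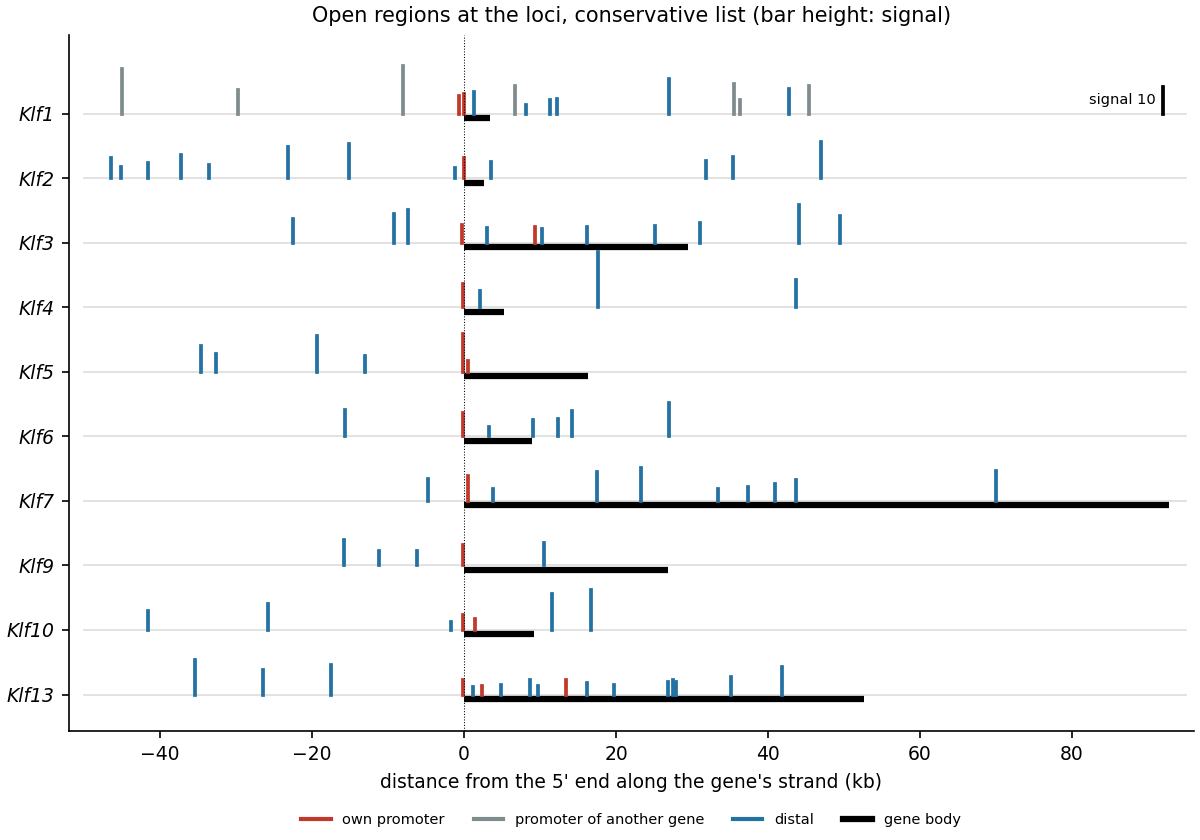
Open regions of the conservative list at each locus, by distance of the strongest summit from the gene's 5′ end along its strand (x axis, kb). Bar height is the signal (scale bar, 10), red marks own promoters, grey promoters of other genes, blue distal regions, and the black line the gene body. The tall distal bar of Klf4 at 17.6 kb, the grey bars at Klf1 and the many low bars within Klf13 stand out.

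The libraries gave similar values at these loci. Of the 83 regions in the own list of replicate 1, 74 (89.2%, 95% Wilson interval 80.7 to 94.2%) were covered over at least 50% of either region by one of replicate 2, against 84.6% of all its regions. Of the 81 in replicate 2, 74 (91.4%, 83.2 to 95.8%) were matched in replicate 1, against 87.4%. Neighbouring regions are not independent, and the intervals cover counting error only. Of the 96 conservative regions 71 were in both own lists, and their median signal was 8.67. For the 13 in neither own list it was 4.53, with a highest value of 7.09. The same counts were not made over all conservative regions. Over the whole genome the own lists were also shorter, with 61735 and 60098 regions against 80938 in the conservative list. The log2 ratio of replicate 2 to replicate 1 had a median of 0.07 (SD 0.15, 48 of 71 higher in replicate 2), against 0.08 (SD 0.18) over 51928 matched regions. The latter were matched directly between the own lists and did not have to be in the conservative list, so the 2 SDs are from unlike sets. At the loci the ratio ranged from -0.28 to 0.43.

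**Figure D4:**
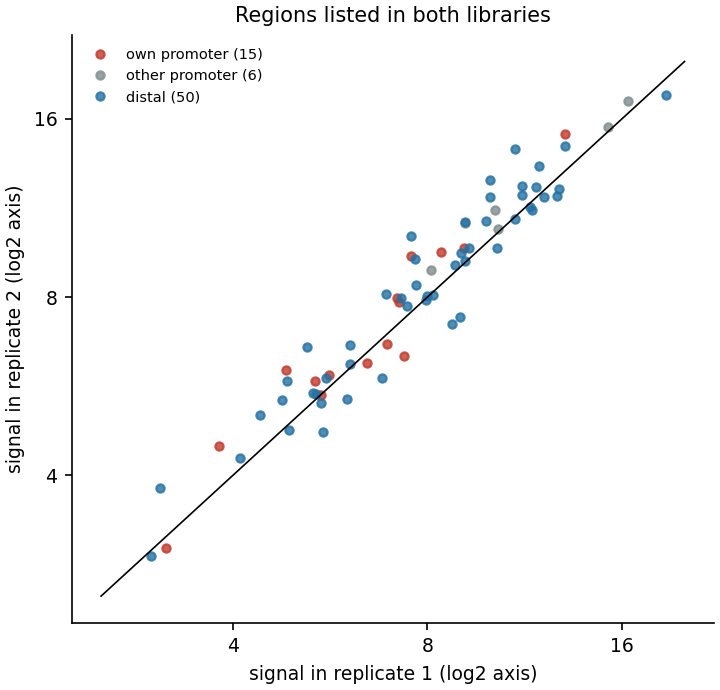
Signal in replicate 1 (x axis) and replicate 2 (y axis), both log2 axes, of the 71 regions listed in both libraries, coloured by class, with the line of equal signal. The points follow the line over the whole range, with 48 of 71 above it.

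Motif matches were counted in windows of 75 bp on each side of the strongest summit. Among the 73 distal regions 23 held a KLF box (31.5%, 95% Wilson interval 22 to 42.9%), against 19.4% of all distal regions. An ETS match was in 34 (46.6%, 35.6 to 57.9%), against 36.2%, and an NF-E2 match in 7 (9.59%, 4.72 to 18.5%), against 6.36%. GATA matches were in 15 (20.5% against 24.2%), RUNX matches in 14 (19.2% against 22.4%) and the CTCF core in 8 (11% against 19.9%). At the 16 promoter regions the KLF box was in 9 (56.2%, 33.2 to 76.9%), against 50.8% of all promoter regions, and the CTCF core in 8 (50%, 28 to 72%), against 25.3%. With 50 bp on each side the CTCF core was in 4 of the 16 (25%), against 19% of all promoter regions, and the distal KLF box share was 23.3% against 14.1%. With 150 bp on each side the CTCF core was in 10 of the 16 (62.5%), against 37.7%. Its distal share was then 24.7%, against 25.9% of all distal regions. The median GC content of the windows with 75 bp on each side was 67.2% at the promoter regions, against 63.6% over all of them. At the distal ones it was 51.7%, against 50.3%. The part of GC content in these shares was not tested. The CTCF core was added to the search after the other results had been seen, and in the Klf4 promoter its match overlaps a KLF box. The Klf4 promoter window holds 6 matches to the KLF box as written, several of which overlap one another, and none of them contains the letters CACCC. GATA matches were in 2 of the 16 promoter windows (12.5%), both at Klf1, against 9.08% of all promoter regions. No NF-E2 match was found in the 16 (upper limit of the interval 19.4%), against 2.66% of all promoter regions. These counts describe letters and do not show binding.

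**Figure D5:**
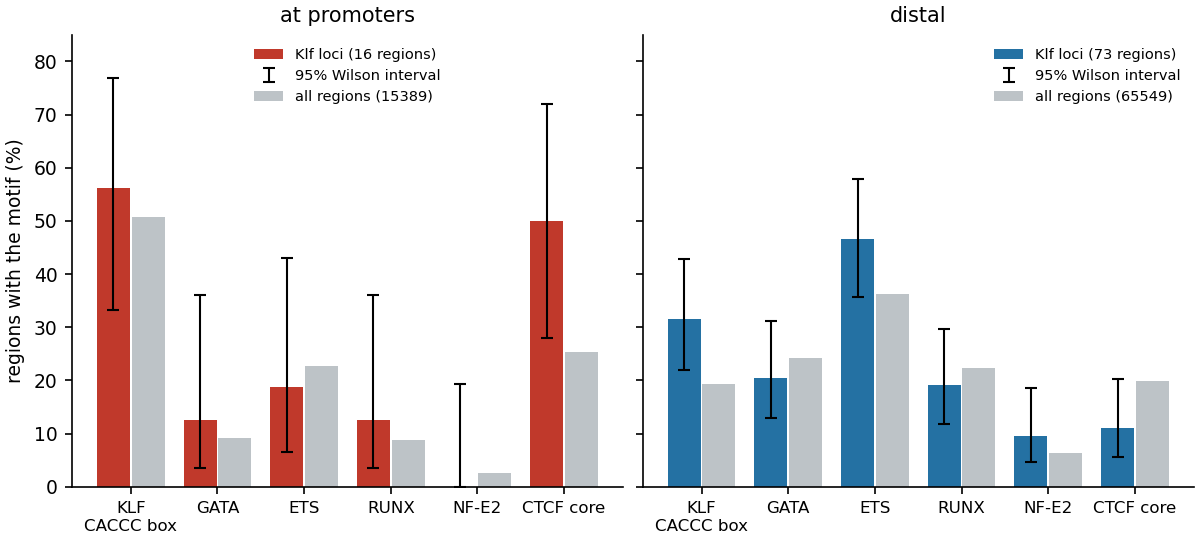
Share of regions (y axis, %) with each of the 6 motifs within 75 bp of the strongest summit, at the KLF loci (coloured, with 95% Wilson intervals) and over all regions of the same class (grey). The left panel shows promoter regions and the right panel distal regions. The KLF box is at 31.5% of distal regions of the loci and 19.4% of all.

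Other genes of the family and its pathways were set beside the members, from lists written with earlier results of these data known. Their counts of open promoters are to be read against the 59.9% of all protein-coding genes, and lists of this size allow no more than a description. Of the 7 other KLF genes, Klf8 (promoter signal 13.19), Klf11 (7.88) and Klf16 had an open promoter, and Klf12, Klf14, Klf15 and Klf17 had none listed. Of 9 genes of the related Sp factors 5 were open, close to the share of all genes, led by Sp2 (10.06) and Sp1 (7.93), while Sp5, Sp6 and Sp7 were among those without. KLF cofactor genes were open in 11 of 12, led by Smarcc1 (16.21), a chromatin remodelling subunit, and Wwp1 (14.85), a ubiquitin ligase that targets KLF proteins. The exception was Fhl3, a partner of Klf3.

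All 5 genes of the MEK5-ERK5-MEF2 route that induces Klf2 and Klf4 had an open promoter, led by Map2k5 (12.40) and Mef2c (12.17). So did all 7 TGF-beta signalling genes, which act upstream of Klf10, led by Smad4 (13.38) and Tgfbr1 (10.65). Of 12 red cell target genes of Klf1, 10 were open, led by Epb42 (13.32), and Alas2 and Slc4a1 had no promoter region. All 4 trafficking genes regulated by Klf2 in lymphocytes were open in the conservative list, among them Itgb7 (9.96), and 3 of the 4 in replicate 1 alone. Of the 8 GATA and FOG genes 4 were open (3 in each library alone), a share below that of all genes, led by Gata3 (9.31) and Zfpm1 (6.01). Of the 4 RUNX genes all were open, led by Runx3 (16.28) and Cbfb (11.72).

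The labelled cell type was checked against marker promoters. Of 8 megakaryocyte markers 5 had an open promoter, led by Gp1ba (13.85) and Itga2b (6.04), a share close to the 59.9% of all genes. In each library alone 3 of the 8 had one, a share below the 56.8% and 56.1% of all genes. Vwf and Selp were among those with none. Promoters of other lineages were open too: 6 of 8 erythroid markers, 5 of 6 monocyte and macrophage markers, 4 of 6 granulocyte markers, 3 of 6 mast cell and basophil markers, 3 of 5 endothelial markers, 2 of 6 stem cell markers, and 1 of 5 each for B cells and for T and NK cells. By library the erythroid count was 5 in each, the endothelial count was 1 in replicate 1 and 2 in replicate 2, and the stem cell count was 2 and 4. An open promoter does not measure how many cells of a type were present, and the part of other cells in the KLF values was not tested.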

How the data were processed

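ATAC-seq peak lists of 2 libraries of 1 group, and lists the authors made from both, were used. Per the labels they are on mm10. The signal per peak and its −log10 p-value are as the authors deposited them, and no scaling between libraries is stated. Which aligner and peak caller made the lists, and how reads were handled, is not given in the sources used here. Each of them can alter the number and position of summits. The depth of the libraries is likewise unknown.

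Peak records with the same interval became 1 region, which took the signal of its strongest summit. Genes were the 21938 protein-coding genes of GENCODE M21 with 54361 start sites, without mitochondrial genes. Sequences were read from GRCm38.p6, the assembly of mm10. Sharing between libraries needed at least 50% of either region covered. Scripts used Python 3.11.15, numpy 2.4.6 and scipy 1.17.1, and were tested on simulated data.

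The members, the 18 other gene lists and the motifs were chosen with earlier results of these data known. The CTCF core motif, the count of loci whose strongest region is distal and the choice of printed windows came after the values were seen. The text names all members with their 3 strongest distal regions, and from each other list of family, pathway and partner genes up to 2 genes with the highest promoter signal and up to 3 without a promoter region. For marker lists only the megakaryocyte genes are named. Some genes and a region that this rule names are not reported here. Alternatives were other peak lists, the stronger 50% of regions, each library alone, 0.5 and 2 kb as the promoter limit, 20 and 100 kb as the reach of a locus, other overlap rules and motif windows of 50 and 150 bp each side.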

Additional observations from a re-analysis of the deposited data

How the results depend on the processing

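All 10 genes had an open promoter under each alternative run except the stronger 50% of regions, which left 3 genes with one, 37 regions at the loci and a median of 2.5 distal regions. The median promoter signal was 7.74, and 7.296 to 7.901 without either replicate. It was 8.063 with a promoter limit of 2 kb or with any overlap of the promoter window. Under both of these the Klf1 value rose from 7.42 to 8.358. A window of 100 kb gave 168 regions and a median of 13 distal regions, and one of 20 kb a median of 3.5. The longer replicated and pseudoreplicated lists gave medians of 11 and 10. Values over all genes were not counted for the stronger 50%, the longer lists or the windows of 20 and 100 kb. These member values therefore cannot be set beside those of all genes. The share of member regions with a KLF box, promoter and distal together, was 36% and rose to 49.4% with 150 bp on each side, a wider search. The shares over all regions rose too. With 150 bp the KLF box was in 68.8% of member promoter regions, against 65.7% of all promoter regions. Among distal regions it was in 45.2%, against 30% of all. A count was taken as stable within 1.5 times its value (so 144 regions in the replicated list against 96 passed), a signal or ratio within 1 SD between libraries or regions, and a share within its 95% interval. Of 44 alternatives to the leading results 34 were stable by these unequal limits and 10 moved. The limits compare each value with its own main value, not with the value over all genes. Of 300 for single genes and motifs 221 were stable and 79 moved, among them the CTCF core at promoters, 50% and 25% with 50 bp on each side. No paired analysis was possible because there is 1 group. The unknown depth limits statements on regions not listed.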
